A study of Rattus norvegicus with 9 samples.

Results

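Markers of liver endothelium were followed across the livers of normal rats and of rats with acute-on-chronic liver failure (ACLF). They were chosen by name: Stab1, Stab2, Lyve1 and Clec4g as markers of sinusoidal endothelium, Cd34, Plvap and Pecam1 as markers of capillarisation, and Kdr, Flt1 and Eng as endothelial receptors. Of these 10 genes, 9 were found among the 32883 genes of the tables and all 9 were among the 14089 genes tested. Pecam1 was not analysed here, so the capillarisation side rests on Cd34 and Plvap.

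The 9 livers came from male Sprague-Dawley rats aged 8 to 11 weeks, with 3 livers in each of 3 groups. The normal group is labelled only as normal rats. Rats of both ACLF groups had biliary cirrhosis from ligation of the common bile duct for 21 days and then received lipopolysaccharide (LPS) at 0.25 mg/kg. From 1 h after LPS they spent 2 h connected to an extracorporeal circuit through the jugular veins, and their livers were taken 24 h after LPS. In the empty group the circuit held neither cells nor apheresis beads. In the UTOpiA group it held cellulose acetate beads for granulocyte and monocyte apheresis, followed by encapsulated, gene-edited human hepatocyte-like organoids. The ACLF livers are from animals alive at that time, and the ligation, LPS and the circuit with its heparin and anaesthesia cannot be told apart in the comparison with normal livers.

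Liver sinusoidal endothelial cells form a wall pierced by open fenestrae, have no continuous basement membrane, and clear macromolecules from blood through scavenger receptors such as the stabilins. In chronic liver injury they can lose fenestrae and scavenger receptors, gain markers of continuous vessels and acquire a basement membrane, a change called capillarisation. VEGF from neighbouring cells acts on the receptor encoded by Kdr and helps to keep sinusoidal cells differentiated, while endoglin binds BMP9 together with the receptor ALK1.

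Between 14241172 and 17321677 reads were counted per liver. Levels within a gene are given as normalised CPM, counts relative to the library total after scaling each library by edgeR's TMM method, and differences as log2 fold changes on the same scale. A gene was called higher or lower when its Benjamini-Hochberg adjusted p over all genes tested (edgeR quasi-likelihood test) was under 0.05 and its fold change was above 2. For a single gene the exact permutation test of 3 livers against 3 cannot go below p = 0.1.

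Compared with normal livers, the empty and UTOpiA groups had 11.4-fold and 13.7-fold more Cd34, while Kdr was 2.92-fold and 2.82-fold lower. Plvap was 2.18-fold higher in ACLF livers of the empty group. Of all genes tested, 20.7% were called higher and 11.1% lower against normal livers with the empty circuit, and 18.2% and 6.81% with UTOpiA. None of the 4 sinusoidal markers was called in either comparison, although Stab2 lay below every normal liver in all ACLF livers. No member was called between the UTOpiA and empty groups, where 0% of all genes were.

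The sequences just upstream of 4 members are printed because their values span the patterns described here. Cd34 and Kdr were called in opposite directions, and Stab2 and Clec4g varied most between ACLF livers of the same group. The windows are the 250 bases before the RefSeq gene start in GRCr8, with Cd34 at chr13:109008536-109008785 (plus strand), Kdr at chr14:32571813-32572062 (plus strand), Stab2 at chr7:23320563-23320812 (minus strand) and Clec4g at chr12:6582914-6583163 (minus strand). Capitals mark matches on either strand to GGAAG, the core bound by ETS factors, or to GATAA, the core bound by GATA factors. Adjoining ETS matches may share letters.
Cd34: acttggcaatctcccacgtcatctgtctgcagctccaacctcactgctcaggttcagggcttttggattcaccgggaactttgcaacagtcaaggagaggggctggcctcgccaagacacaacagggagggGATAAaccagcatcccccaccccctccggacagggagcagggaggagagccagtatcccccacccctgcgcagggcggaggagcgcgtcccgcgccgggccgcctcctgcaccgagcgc
Kdr: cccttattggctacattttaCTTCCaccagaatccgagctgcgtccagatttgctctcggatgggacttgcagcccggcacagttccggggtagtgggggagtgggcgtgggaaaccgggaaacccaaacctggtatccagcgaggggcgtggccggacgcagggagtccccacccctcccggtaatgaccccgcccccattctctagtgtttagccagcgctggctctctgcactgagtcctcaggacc
Stab2: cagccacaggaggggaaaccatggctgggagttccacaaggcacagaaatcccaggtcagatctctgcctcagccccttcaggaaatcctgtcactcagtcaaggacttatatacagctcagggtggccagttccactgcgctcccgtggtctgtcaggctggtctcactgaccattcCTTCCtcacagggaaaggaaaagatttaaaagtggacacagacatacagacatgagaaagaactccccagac
Clec4g: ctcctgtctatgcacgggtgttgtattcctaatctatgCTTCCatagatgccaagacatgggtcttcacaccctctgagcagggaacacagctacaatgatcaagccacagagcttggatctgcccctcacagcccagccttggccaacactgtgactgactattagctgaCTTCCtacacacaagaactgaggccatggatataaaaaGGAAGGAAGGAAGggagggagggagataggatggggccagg
The Cd34 window held 0 ETS matches and 1 GATA match, the Kdr and Stab2 windows 1 ETS match each, and the Clec4g window 5, of which 3 lie in one run. Across the 9 members with a RefSeq window, 8 held an ETS match, against 63.3% of all 33469 windows of the same length, and 2 held a GATA match, against 23.5%. The CACCC letters bound by KLF factors were in 8 of the 9 windows and in 49.2% of all windows. Such matches describe letters in a short window and are not binding sites.

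Among the sinusoidal markers, Stab2 (ENSRNOG00000038948, chromosome 7, 27369853 to 27552078, minus strand) encodes stabilin-2, the hyaluronan scavenger receptor of sinusoidal endothelium. Gene positions here and below are those of the deposited tables, for which the submitters' notes name the build rn6. Stab2 was at 57.4, 70.8 and 57.3 normalised CPM in normal livers 1 to 3, at 6.79, 53.3 and 6.2 in the empty group and at 26.0, 10 and 36.3 in the UTOpiA group. Empty livers 1 and 3 were thus far under every normal liver, empty liver 2 was only just under them, and the UTOpiA livers lay in between. Its group means were 61.8 ± 7.77 (SD, n = 3), 22.1 ± 27.0 and 24.1 ± 13.3. The log2 fold change from normal was -1.49 (SE 0.81, adjusted p = 0.159, edgeR) in the empty group and -1.36 (SE 0.81, adjusted p = 0.21) in the UTOpiA group, so that neither passed although the groups did not overlap. Empty liver 2 set this outcome. Without it the log2 fold change in the empty group was -3.25 with an adjusted p of 0.00133, and that in the UTOpiA group was -1.37 with an adjusted p of 0.024, since this liver also widens the spread shared by all groups. With only the normal and UTOpiA libraries in the fit, Stab2 was called as well (-1.37, adjusted p = 0.0279).

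The 3 livers with the lowest Stab2 also had the 3 lowest summed levels of 10 hepatocyte markers, of which 5 were called lower with the empty circuit and 3 with UTOpiA, against 11.1% and 6.81% of all genes. Normal livers held 169551 to 186016 summed hepatocyte TPM (transcript levels scaled by gene length). Empty liver 2 had 82380 against 44993 and 43965 in empty livers 1 and 3, and its 11 monocyte and neutrophil markers summed to 462 TPM against 1367 and 1884. UTOpiA liver 2, the lowest of its group for Stab2, had 50870 hepatocyte TPM against 78405 and 69857, and 1553 monocyte and neutrophil TPM against 668 and 344. Normal livers held 13.4 to 23.6 TPM of the latter, of which all 6 tested were called higher in both ACLF groups (20.7% and 18.2% of all genes) and Ly6c was at 0 in every liver. In normal livers most of the hepatocyte sum was Alb, whose group means were 119226, 20100 and 23273 TPM in normal, empty and UTOpiA livers. Serpina1, another of the 10, went the other way, at 7285, 10896 and 14009 TPM. By edgeR 9 of the 10 had log2 fold changes below 0 in the empty group and 8 with UTOpiA. The part of the hepatocyte, monocyte and neutrophil shifts in the Stab2 values was not tested. In bulk tissue, fewer cells of a type and less RNA per cell cannot be told apart.

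Clec4g (ENSRNOG00000054013, chromosome 12, 2273941 to 2277169, minus strand) encodes LSECtin, a C-type lectin of sinusoidal endothelium. It was at 5.16, 7.28 and 4.76 normalised CPM in normal livers, at 3.16, 10.1 and 0.769 in the empty group and at 8.65, 1.16 and 12.3 in the UTOpiA group. Each ACLF group held livers both above and below the normal range. The log2 fold change was -0.29 (SE 0.92, adjusted p = 0.814, edgeR) in the empty group and 0.35 (SE 0.92, adjusted p = 0.786) in the UTOpiA group. The 95% interval of the first, -2.4 to 1.81, leaves room for a change of more than 2-fold either way.

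Lyve1 (ENSRNOG00000026902, chromosome 1, 175663266 to 175676699, minus strand) encodes a hyaluronan receptor shared by sinusoidal and lymphatic endothelium. Normal livers held 70.1, 78.6 and 82.2 normalised CPM, empty livers 54.7, 82.2 and 36.8, and UTOpiA livers 59.3, 37.1 and 80.1. In both ACLF groups 2 livers lay under the normal range and 1 within it. The log2 fold changes were -0.41 (SE 0.32, adjusted p = 0.318, edgeR) and -0.39 (SE 0.32, adjusted p = 0.366).

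Stab1 (ENSRNOG00000018434, chromosome 16, 7222067 to 7250924, minus strand) encodes stabilin-1, which sinusoidal endothelium shares with tissue macrophages. Its normalised CPM were 18.0, 18.1 and 15.7 in normal livers, 16.7, 21.2 and 12.7 in the empty group and 14.5, 16.6 and 14.7 with UTOpiA. The 3 groups overlapped, with log2 fold changes of -0.03 (SE 0.19, adjusted p = 0.901, edgeR) and -0.17 (SE 0.19, adjusted p = 0.493). Stab1 had the narrowest interval of the 4 sinusoidal markers, -0.46 to 0.39 in the empty group, which does not reach a 2-fold change. Of 12 macrophage markers, 9 were called higher with the empty circuit and 8 with UTOpiA, against 20.7% and 18.2% of all genes, and 0 lower. The 12 summed to 504 to 601 TPM in normal livers, 1795 to 2479 in the empty group and 918 to 2305 in UTOpiA livers, and their part in the Stab1 level was not tested.

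The sign of a small difference depended on the scale, because log2(TPM + 1) moved all genes. The median of all genes there was 0.44 between the empty and normal groups, against 0.04 with TMM, and the fold changes of Stab1 and Lyve1 were 0.37 and 0.04. With UTOpiA the median of all genes was 0.29, Stab1 came to 0.11 and Lyve1 to -0.13. Both genes thus lay below the median of all genes on either scale in both groups. The directions of Stab2, Cd34, Plvap, Kdr and Eng against normal livers were the same on both scales.

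**Figure D1:**
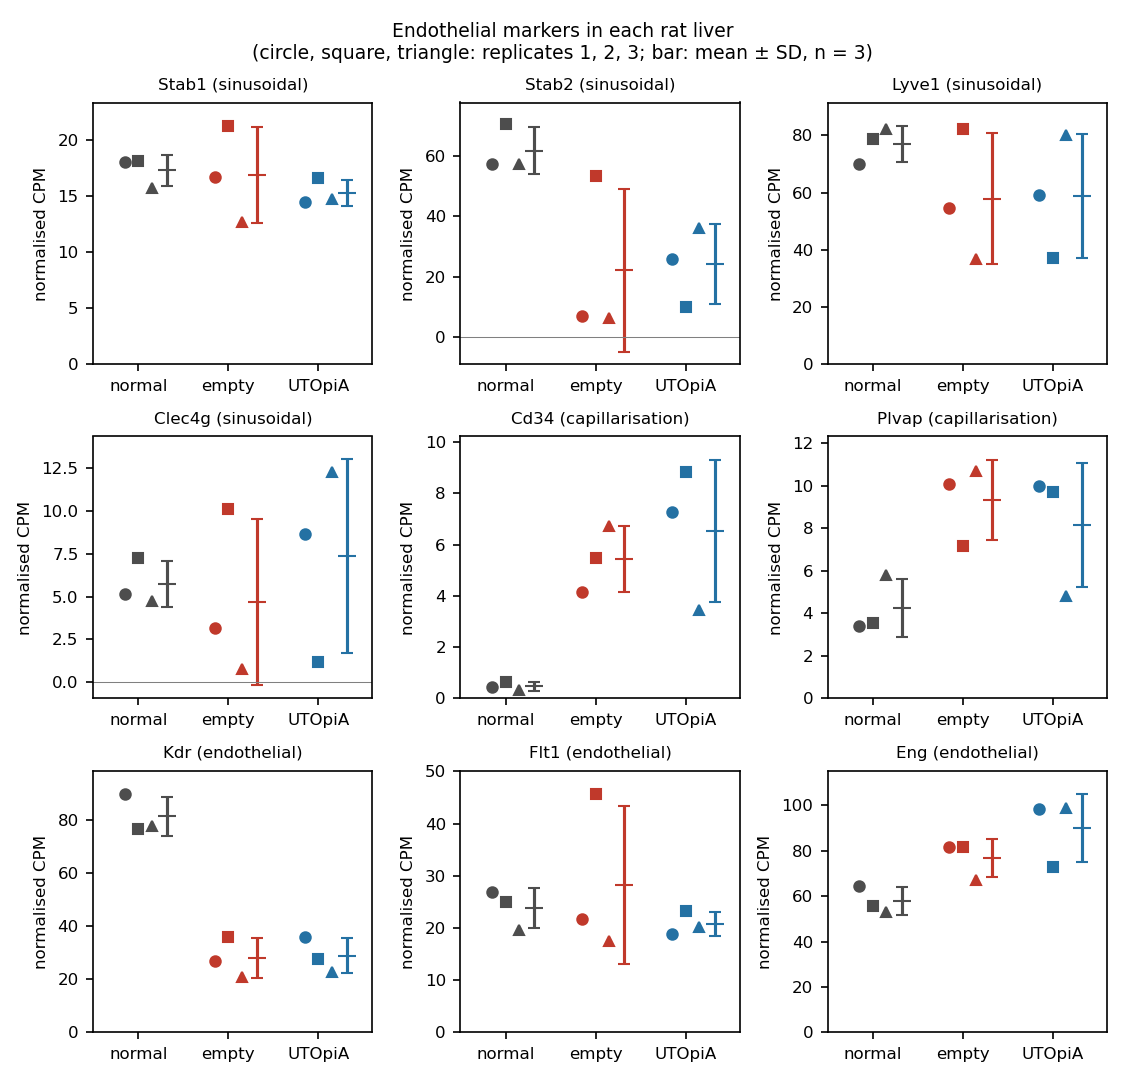
Normalised CPM of the 9 endothelial markers (vertical axes, linear, starting at or just under 0) in normal, empty and UTOpiA livers, with 1 point per liver and a bar for the mean ± SD of 3 livers. Cd34 lies at 0.328 to 0.647 in normal livers and at 3.46 to 8.84 in ACLF livers, Kdr moves the other way, and Stab2 and Clec4g spread widely within each ACLF group.

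Turning to the capillarisation markers, Cd34 (ENSRNOG00000045558, chromosome 13, 113691932 to 113711647, plus strand) encodes a sialomucin of continuous capillaries that normal sinusoids largely lack and that haematopoietic progenitors and some fibroblasts also carry. In normal livers it was at 0.437, 0.647 and 0.328 normalised CPM, from 5, 8 and 4 reads. It was at 4.15, 5.47 and 6.73 in the empty group, from 80, 102 and 140 reads, and at 7.28, 8.84 and 3.46 in the UTOpiA group, from 112, 175 and 46 reads. Every ACLF liver was above every normal liver, and the 2 ACLF groups overlapped. The log2 fold change was 3.51 (SE 0.45, adjusted p = 0.000374, edgeR) in the empty group and 3.77 (SE 0.46, adjusted p = 0.000409) in the UTOpiA group, with higher values in 6 of 6 ACLF livers. The few normal reads limit the precision of the fold, whose 95% interval on the log2 scale ran from 2.49 to 4.53 in the empty group.

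Markers of other cells were read beside Cd34. The summed level of 12 stellate and fibroblast markers was 114 to 127 TPM in normal livers, 888 to 1086 in the empty group and 470 to 1080 with UTOpiA. Among 6 haematopoietic progenitor and erythroid genes, Gata1 was at 0 in every liver, Kit had a log2 fold change of -0.32 (adjusted p = 0.249, edgeR) in the empty group and was called lower with UTOpiA (-1.07, adjusted p = 0.00499), and the erythroid genes Hbb and Alas2 rose by 3.63 and 3.72 (adjusted p = 0.000652 and 0.00067) in the empty group. The summed level of these 6 genes was 40.1 to 123 TPM in normal livers, 1041 to 1225 in the empty group and 372 to 606 in UTOpiA livers, nearly all of it Hbb, a gene of red cells, whose group means were 64.8, 1148 and 484 TPM. The part of the stellate, fibroblast and blood cell genes in the Cd34 level was not tested.

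Plvap (ENSRNOG00000017676, chromosome 16, 19906318 to 19918689, minus strand) encodes the protein of the diaphragms that close fenestrae and caveolae in continuous and fenestrated vessels outside the sinusoid. It was at 3.41, 3.56 and 5.82 normalised CPM in normal livers, at 10.1, 7.19 and 10.7 in the empty group and at 10, 9.7 and 4.81 in the UTOpiA group. All empty livers exceeded the normal livers, whereas UTOpiA liver 3 fell within the normal range. The log2 fold change was 1.12 (SE 0.33, adjusted p = 0.0196, edgeR) in the empty group, which was called, and 0.94 (SE 0.33, adjusted p = 0.048) in the UTOpiA group, where the 1.92-fold change stayed under the 2-fold threshold. The call in the empty group was lost when normal liver 1 or 2 or empty liver 1 or 3 was left out, with adjusted p of 0.0725, 0.0728, 0.0517 and 0.0613, and the call in the UTOpiA group was gained without normal liver 3 (adjusted p = 0.0355) or without UTOpiA liver 3 (adjusted p = 0.0122). Of the alternatives that changed the processing, 3 also gained the call in the UTOpiA group and 5 did not.

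Of the receptors, Kdr (ENSRNOG00000046829, chromosome 14, 34727623 to 34787183, plus strand) encodes VEGF receptor 2, the main signalling receptor for VEGF-A. Normal livers held 89.7, 76.8 and 77.6 normalised CPM, empty livers 26.8, 35.9 and 21, and UTOpiA livers 36.0, 27.6 and 22.9. All 6 ACLF livers were below all 3 normal livers by a wide margin, and the ACLF groups covered nearly the same range. The log2 fold change was -1.54 (SE 0.22, adjusted p = 0.000624, edgeR) in the empty group and -1.5 (SE 0.22, adjusted p = 0.00108) in the UTOpiA group. Adjusted p stayed at 0.01 or below in all 17 alternatives of both comparisons. On log2(TPM + 1) the fold change in the empty group was -0.97, just under 2-fold.

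Flt1 (ENSRNOG00000000940, chromosome 12, 9034308 to 9205905, plus strand) encodes VEGF receptor 1, which binds VEGF-A tightly and signals weakly. It was at 26.9, 24.9 and 19.6 normalised CPM in normal livers, at 21.7, 45.6 and 17.6 in the empty group and at 18.9, 23.3 and 20.2 in the UTOpiA group. All groups overlapped, and empty liver 2 alone stood above the rest. The log2 fold changes were 0.25 (SE 0.32, adjusted p = 0.545, edgeR) and -0.19 (SE 0.32, adjusted p = 0.662), the latter being 0.11 on log2(TPM + 1), where the median of all genes was 0.29. The TPM ratio of Flt1 to Kdr was 0.23 to 0.295 in normal livers, 0.737 to 1.15 in the empty group and 0.478 to 0.804 with UTOpiA. Normal and ACLF livers did not overlap. Mean TPM of Kdr was 18.4, 9.0 and 8.32 in normal, empty and UTOpiA livers, and that of Flt1 4.9, 8.29 and 5.44, so both genes moved the ratio.

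Eng (ENSRNOG00000050190, chromosome 3, 11679530 to 11717485, plus strand) encodes endoglin, a co-receptor for BMP9 and TGF-beta. Its normalised CPM were 64.7, 55.5 and 53.0 in normal livers, 81.9, 81.6 and 67.1 in the empty group and 98.5, 73.0 and 98.8 with UTOpiA. All ACLF livers were above the normal livers, by a modest margin. The log2 fold change was 0.41 (SE 0.16, adjusted p = 0.0626, edgeR) in the empty group and 0.64 (SE 0.17, adjusted p = 0.0133) in the UTOpiA group, a 1.56-fold change that stayed under the threshold of 2. In the empty group, DESeq2 gave an adjusted p of 0.0386, and over all alternatives it ran from 0.00104 to 0.194.

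Counted over the 9 members, the empty group had 2 called higher against normal livers (20.7% of all genes tested) and 1 called lower (11.1%). The UTOpiA group had 1 member called higher (18.2%) and 1 lower (6.81%). Livers of the empty group did not overlap normal livers in 5 of the 9 members and those of the UTOpiA group in 4, against 61.1% and 56.9% of all genes. These counts are near the shares among all genes, and both comparisons share the normal livers.

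**Figure D2:**
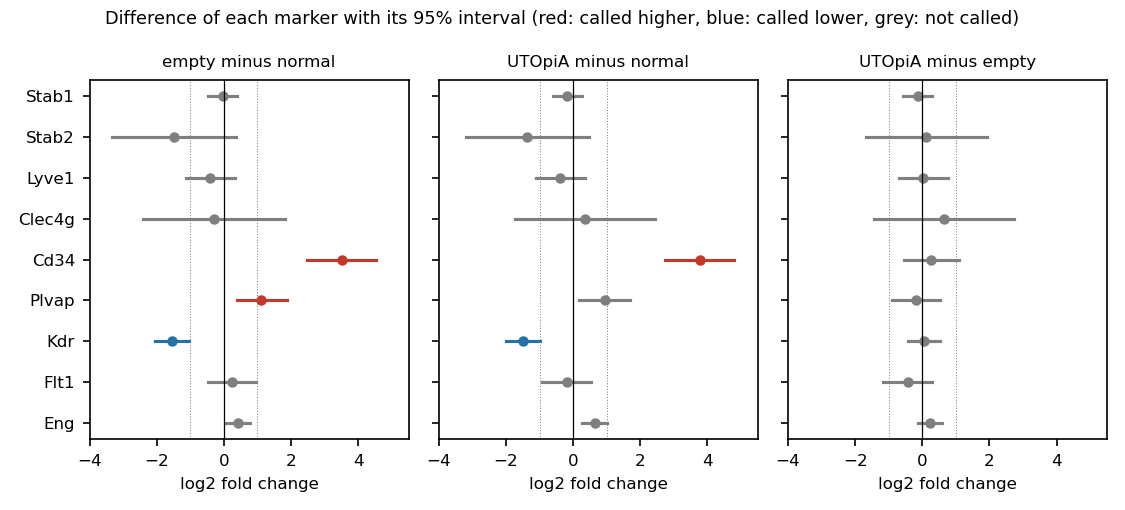
Log2 fold change (horizontal axis) of each marker with its 95% interval from the edgeR fit in the 3 comparisons, with dotted lines at a 2-fold change. Cd34 at 3.51 and 3.77 and Kdr at -1.54 and -1.5 stand apart from 0 in both comparisons with normal livers, and no interval in the UTOpiA minus empty panel excludes 0.

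The UTOpiA and empty groups overlapped in all 9 members, whereas 12.1% of all genes did not overlap. By edgeR 0 members and 0 of all genes were called in either direction, and 0 members had an unadjusted p under 0.05, against 1456 of all genes (10.3%). DESeq2 called 53 genes higher and 71 lower, and 0 members had an unadjusted p under 0.05 with it. The log2 difference of Kdr was 0.05 (95% interval -0.44 to 0.54), that of Cd34 0.27 (-0.55 to 1.08) and that of Eng 0.23 (-0.14 to 0.6). For Stab2 the interval of -1.69 to 1.94 around 0.12 was too wide to place the groups. Without empty liver 2 the Stab2 difference was 1.89 (adjusted p = 0.123, edgeR) and that of Clec4g 1.9 (adjusted p = 0.39), both still not called. On log2(TPM + 1), where the median of all genes was -0.17, Kdr gave -0.13.

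Levels between genes were compared on TPM. In normal livers the order was Lyve1 (35.8 ± 2.87 TPM, SD, n = 3), Eng (27.3 ± 2.92), Kdr (18.4 ± 1.59), Stab2 (11.7 ± 1.63), Clec4g (9.87 ± 2.48), Flt1 (4.9 ± 0.813), Stab1 (3.51 ± 0.32), Plvap (3.04 ± 0.928) and Cd34 (0.384 ± 0.138). Ranges of neighbours overlapped only between Stab2 and Clec4g and between Stab1 and Plvap. In the empty group Eng stood first at 51.9 ± 2.74 TPM, Lyve1 second at 38.2 ± 14.2, and the other 7 between 4.89 and 11.3, with every neighbour overlapping except Lyve1 and Clec4g. Cd34, the lowest marker in normal livers, reached 6.43 ± 1.95 TPM there, beside Stab2 at 5.91 ± 7.17. With UTOpiA, Eng was at 52.7 ± 6.26, Lyve1 at 32.8 ± 6.19, Cd34 at 7.05 ± 3.99 and Stab2 at 5.32 ± 2.19 TPM.

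The TPM ratio of Cd34 to Stab2 set these against each other within each liver. It was 0.0329, 0.0394 and 0.0247 in normal livers, 2.63, 0.443 and 4.68 in the empty group, and 1.21, 3.81 and 0.411 with UTOpiA. Even the lowest ACLF liver was well above every normal liver. The ratio of Stab2 to Lyve1, both sinusoidal, was 0.283 to 0.365 in normal livers, 0.0504 to 0.263 in the empty group and 0.109 to 0.184 in UTOpiA livers, so that Stab2 was the lower of the pair relative to normal livers in each ACLF liver.

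Averaged on log2(TPM + 1), the sinusoidal markers minus the capillarisation markers differed by 2.43, 2.55 and 2.17 in normal livers, 0.09, 1.35 and -0.91 in the empty group and 0.43, -0.71 and 1.64 with UTOpiA. All ACLF livers were below all normal livers, and the ACLF groups overlapped. The means were 2.38 ± 0.2, 0.17 ± 1.13 and 0.45 ± 1.17 (SD, n = 3 each). The capillarisation mean went from 1.23 in normal livers to 3.12 in the empty group and 2.93 in UTOpiA livers, while the sinusoidal mean was 3.61, 3.29 and 3.38. On this scale the difference from normal livers thus came mostly from Cd34 and Plvap. The median of all genes there moved by 0.44 in the empty group and 0.29 with UTOpiA. In the empty group the SD was 0.91 on the sinusoidal side and 0.29 on the capillarisation side, and with UTOpiA 0.49 and 0.78.

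**Figure D3:**
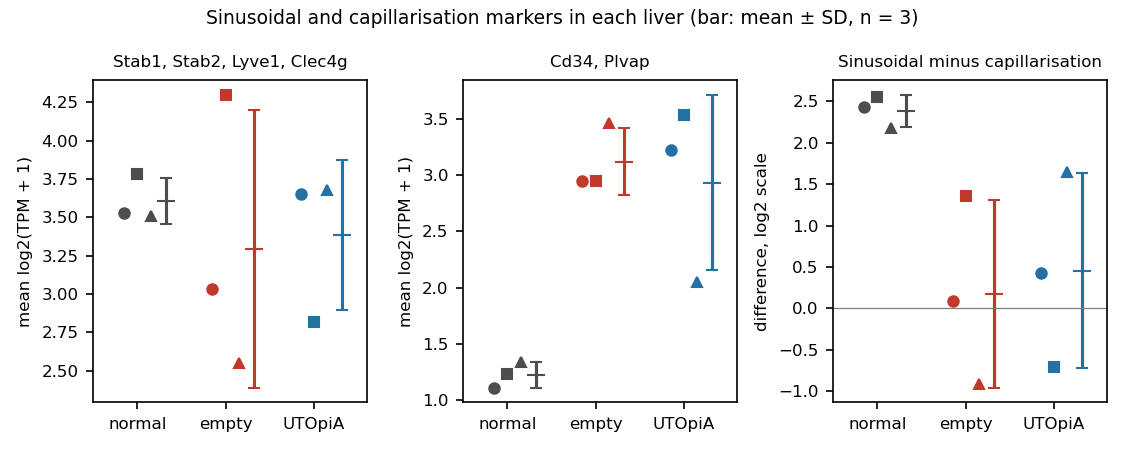
Mean log2(TPM + 1) of Stab1, Stab2, Lyve1 and Clec4g (left), of Cd34 and Plvap (middle), and their difference (right, log2 scale) in each liver, with bars for the mean ± SD of 3 livers. The difference lies at 2.17 to 2.55 in normal livers and at -0.91 to 1.64 in ACLF livers, and the vertical axes do not start at 0.

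Across the 9 livers, which differ in depth, composition and group, Stab2 had a Pearson r of 0.88 with Lyve1, 0.78 with Clec4g, 0.76 with Kdr and 0.52 with Stab1 on log2 CPM. It had -0.81 with Plvap and -0.68 with Cd34. Among the genes most like Stab2 were Gstk1 (0.986), Dnajb2 (0.979), Senp6 (0.976) and Azin1 (0.974). Cd34 had an r of 0.81 with Plvap and -0.9 with Kdr. The genes most like Cd34 were Spns2 (0.995), which encodes a sphingosine-1-phosphate exporter of endothelium, Popdc2 (0.995), Serpinb6b (0.991), Pld2 (0.99) and Rgcc (0.99). These values describe 9 livers in 3 groups, so that group differences enter every one of them.

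Other genes of the same cells were read from written lists. Of 22 further sinusoidal genes tested, 6 rose and 3 fell with the empty circuit, where 20.7% of all genes were called higher and 11.1% lower, and their median log2 difference was 0.24 beside 0.04 for all genes. With UTOpiA 5 rose and 1 fell, against 18.2% and 6.81% of all genes, with a median of -0.06 beside 0.05 (0.18 beside 0.29 on log2(TPM + 1)). These counts are near the shares among all genes. With an ACLF library left out, 1 to 4 fell in the empty group (the 1 without empty liver 3), and with UTOpiA 2 to 5 rose (3 without UTOpiA liver 1, 2 without UTOpiA liver 2) and 0 to 2 fell (2 without empty liver 2 or 3, 0 without UTOpiA liver 2 or 3). Ehd3, which encodes an endocytic recycling protein, fell by 2.05 (SE 0.62, adjusted p = 0.0246, edgeR) in the empty group and by 2.27 (adjusted p = 0.0209) in the UTOpiA group. It was at 78.5 to 96.1 normalised CPM in normal livers, at 10.6, 46.3 and 6.87 in the empty group and at 23.2, 13.5 and 18.2 in the UTOpiA group, with empty liver 2 again the highest of the ACLF livers. In the empty group the largest rises on the list were those of the water channel gene Aqp1 (2.48, adjusted p = 0.00567), the transcription factor gene Tfec (2.29, adjusted p = 0.00176) and the endocytic adaptor gene Dab2 (2.05, adjusted p = 0.00494). Other liver cells also express these genes, and the order differed with UTOpiA. Cholangiocytes carry Aqp1, and the 10 cholangiocyte markers summed to 56.1 to 79.0 TPM in normal livers, 437 to 888 in the empty group and 205 to 629 with UTOpiA. Their part was not tested.

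Of 29 further genes of vascular endothelium, 19 rose and 0 fell with the empty circuit, against 20.7% and 11.1% of all genes, with a median of 1.16 beside 0.04 for all genes. With UTOpiA 15 rose and 0 fell, against 18.2% and 6.81%, with a median of 1.15 beside 0.05. Edn1, which encodes the vasoconstrictor endothelin-1, rose by 5.46 (SE 0.7, adjusted p = 0.000356, edgeR), from 0 to 4 reads per normal liver to 115 to 187 reads in the empty group. Pdgfb, which encodes a growth factor for pericytes and stellate cells, rose by 4.63 (adjusted p = 0.000969). Aplnr, the apelin receptor gene, and Rgcc had 3 reads or fewer in every normal liver. Against a floor of 3 reads per library they were at least 64.8-fold and 8.45-fold higher in the empty group, with Aplnr at 27.1, 2.2 and 19.4 normalised CPM and lowest in empty liver 2. Cdh5 and Vwf, chosen after their values were seen, stand in for Pecam1, which was not analysed here, as general endothelial markers. Cdh5, which encodes VE-cadherin, was at 25.7 to 28.4 normalised CPM in normal livers, 46.3 to 58.9 in the empty group and 45.4 to 56.3 in UTOpiA livers, with log2 fold changes of 1.03 (adjusted p = 0.000579) and 0.88 (adjusted p = 0.0018, under 2-fold). Vwf, which encodes von Willebrand factor, had 0.71 (adjusted p = 0.164) and 1.32 (adjusted p = 0.0264). In the empty group Kdr therefore fell while Cdh5, the marker chosen, rose. Of the 29 genes, 28 were above 0 there, but 10 were not called. Tek (0.44, adjusted p = 0.134, edgeR) and Erg (0.39, adjusted p = 0.249) were among these 10. The 30 listed vascular genes summed to 85.9 to 104 TPM in normal livers, 320 to 367 in the empty group and 247, 352 and 158 in UTOpiA livers 1 to 3. Other liver cells also express some of them, such as Pdgfb and Edn1. The stellate and fibroblast markers given beside Cd34 were at 699, 1080 and 470 TPM in the same UTOpiA livers and the macrophage markers at 1642, 2305 and 918, so that UTOpiA liver 3 was the lowest and UTOpiA liver 2 the highest for all 3 lists. The part of these cells in the vascular counts was not tested.

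Sinusoids normally lack a continuous basement membrane, and of 13 basement membrane genes, 12 rose with the empty circuit (20.7% of all genes) and 11 with UTOpiA (18.2%), and 0 fell (11.1% and 6.81%). The medians were 2.28 and 2.22 beside 0.04 and 0.05 for all genes, or 1.9 and 1.83 with the gene near 0 in normal livers set to its lower bound. Col4a1, which encodes a chain of type IV collagen, was at 53.1 to 63.4 normalised CPM in normal livers, 441 to 517 in the empty group and 325 to 463 with UTOpiA, and rose by 3.05 (SE 0.21, adjusted p = 4.36e-05, edgeR) and 2.75 (adjusted p = 7.02e-05). Lama5, Lamb1 and Col4a2, genes of laminin chains and of the partner collagen chain, rose by 5.42, 3.46 and 2.56 in the empty group (adjusted p = 5.47e-05, 6.12e-05 and 0.000104). Stellate cells, cholangiocytes and fibroblasts also make these proteins, and in the empty group 8 of 12 stellate and fibroblast markers and 9 of 10 cholangiocyte markers were called higher, against 20.7% of all genes. Their part was not tested.

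**Figure D4:**
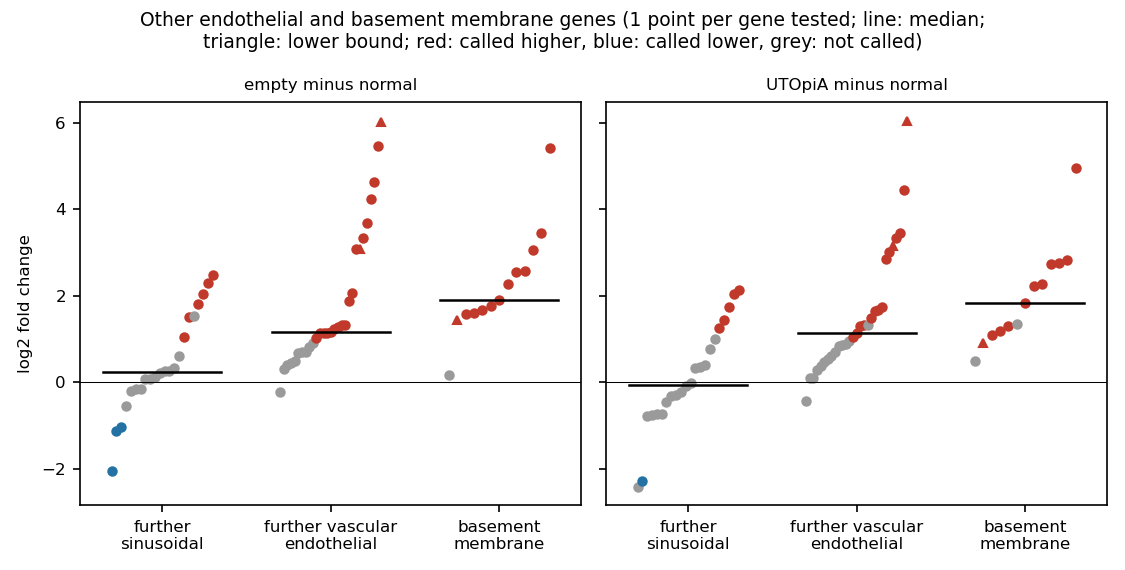
Log2 fold change (vertical axis) of 22 further sinusoidal, 29 further vascular endothelial and 13 basement membrane genes against normal livers, with 1 point per gene, triangles for genes near 0 in normal livers set to a lower bound, and a line at the median. The sinusoidal list spreads around 0, with medians of 0.24 and -0.06, while the vascular and basement membrane lists lie mostly above 1.

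The ligands and partners of the receptors were read in the same way. Of 14 genes of the VEGF and angiopoietin pathway, which include Kdr and Flt1, 7 were called higher and 1, Kdr, lower in the empty group, against 20.7% and 11.1% of all genes, and 4 and 1 in UTOpiA livers, against 18.2% and 6.81%. Vegfa, the ligand of Kdr made largely by hepatocytes, was at 176 to 189 normalised CPM in normal livers, at 108, 289 and 100 in the empty group and at 173, 148 and 225 in the UTOpiA group. Its log2 fold changes of -0.13 (SE 0.38, adjusted p = 0.79, edgeR) and 0 (adjusted p = 1) did not pass, and empty liver 2 was again apart from empty livers 1 and 3. Vegfd, a lymphatic growth factor gene, rose by 4.98 (adjusted p = 0.000891) from 2 to 11 reads per normal liver. Among the receptors, Flt4 and Nrp1 rose by 1.1 (adjusted p = 0.00285) and 1.08 (adjusted p = 0.0035) in the empty group, in which Kdr fell. With UTOpiA, where Kdr fell as well, their rise was smaller. Mean normalised CPM in normal, empty and UTOpiA livers were 13.0, 27.8 and 19.2 for Flt4 and 19.7, 41.8 and 30.7 for Nrp1. Angpt2, the endothelial antagonist of the Tie2 receptor, rose by 3.07 (adjusted p = 0.00174) in the empty group and by 1.65 (adjusted p = 0.0423) in the UTOpiA group.

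Of 17 genes tested in the endoglin and BMP pathway, 4 were called higher and 0 lower in the empty group (20.7% and 11.1% of all genes), and 2 and 0 with UTOpiA (18.2% and 6.81%), so that the higher counts were near or below the shares of all genes. Acvrl1, which encodes the receptor ALK1 that works with endoglin, rose by 1.35 (SE 0.27, adjusted p = 0.00323, edgeR) and 1.13 (adjusted p = 0.00997). Gdf2, which encodes BMP9, was at 21.8 to 34.3 normalised CPM in normal livers, at 2.13, 24.1 and 1.44 in the empty group and at 20.7, 1.36 and 7.52 in the UTOpiA group. Its log2 fold changes of -1.52 (SE 1.11, adjusted p = 0.283) and -1.43 (adjusted p = 0.333) did not pass. Its lowest levels were in empty livers 1 and 3 and UTOpiA liver 2, the livers with the least Stab2, but UTOpiA liver 3 was also well under normal livers for Gdf2 while being the highest of its group for Stab2. Tgfb1, Tgfbr1 and Id1 were the other genes called in the empty group, with 1.85, 1 and 1.22 (adjusted p = 0.000304, 0.000354 and 0.00776).

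Among 15 transcription factors of endothelium, 4 were called higher and 1 lower in the empty group, and 4 and 0 in UTOpiA livers, beside shares of all genes of 20.7% and 11.1%, and of 18.2% and 6.81%. Gata4, which directs sinusoidal differentiation, was the gene called lower, with -1.04 (SE 0.27, adjusted p = 0.0104, edgeR). It was at 37.5, 28.5 and 18.4 normalised CPM in normal livers and at 13.9, 15.6 and 11.6 in the empty group. With UTOpiA, at 19.4, 12.7 and 18.7, it overlapped normal livers (-0.74, adjusted p = 0.0515). Bulk tissue does not show which liver cells the Gata4 reads came from. Tfec, Klf4, Fli1 and Sox17 were higher in both groups, Klf4 by 2.1 (adjusted p = 0.00138) and 1.53 (adjusted p = 0.00868), whereas Maf and Meis2 had values of -0.16 (adjusted p = 0.662) and -0.54 (adjusted p = 0.363) in the empty group.

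Since Lyve1 also marks lymphatic vessels, 7 lymphatic genes were listed, of which 6 were tested. Of these, 4 rose with the empty circuit and 3 with UTOpiA, and 0 fell, beside 20.7% and 18.2% of all genes called higher. Pdpn, which encodes podoplanin and which cholangiocytes and fibroblasts can also carry, had 0 to 2 reads in normal livers and was at 11.7, 7.24 and 19.1 normalised CPM in the empty group, at least 50.6-fold higher against the floor of 3 reads. With UTOpiA it was at 3.84, 14.2 and 2.86, where UTOpiA liver 2 stood above the rest. Mmrn1 and Ccl21 rose by 5.73 (adjusted p = 0.00103, edgeR) and 3.93 (adjusted p = 5.8e-05) in the empty group. Prox1, the gene of the lymphatic transcription factor, which hepatocytes also express, lay below every normal liver in both ACLF groups, with -0.68 (adjusted p = 0.0112, under 2-fold) and -0.43 (adjusted p = 0.0811), and Reln had -0.21 (adjusted p = 0.543) and -0.06 (adjusted p = 0.882). Both were named after their values were seen. The lymphatic genes summed to 33.9 to 38.0 TPM in normal livers, 117 to 152 in the empty group and 56.4 to 73.8 in UTOpiA livers, and their part in the Lyve1 level was not tested.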

How the data were processed

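Bulk poly(A) RNA from 9 rat livers was sequenced, and each library was assigned to its group by its label. The authors deposited raw counts per gene and TPM for 32883 genes. Per the paper's methods, reads were trimmed with Cutadapt 1.9.1, aligned with HISAT2 2.0.1 and counted with featureCounts 2.6.0. The submitters' notes name Trimmomatic and the build rn6, whereas the methods name the mouse build GRCm38. The strand setting is not given in the sources used here, so overlapping genes could share reads.

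Counts were fitted in edgeR 4.0.16 (R 4.3.3): filterByExpr (14089 genes), TMM, all 9 libraries with a mean per group, robust quasi-likelihood test, two-sided, Benjamini-Hochberg over all genes. SEs and 95% intervals come from that test and its moderated degrees of freedom. The deposited TPM were used for levels between genes and for log2(TPM + 1). Alternatives were DESeq2 1.42.0, limma 3.58.1, other scalings and filters, only the 6 libraries compared, a replicate block, and leaving out each library. The tests were also run on simulated counts, with far fewer changed genes than here and the same spread in every group. That run checks the code and not its behaviour on these data.

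A floor of 3 counts per library served genes near 0 in normal livers, and covers counting error only. The labels call the libraries biological replicates. Chi-square per degree of freedom between replicates was 18.8 or more, so none was a repeat deposit. All members were named, up to 4 genes of each other list by size of change in the empty group with a mean of at least 1 TPM, any gene of the VEGF, endoglin and transcription factor lists, and the 5 genes most like Stab2 and Cd34. An item that this rule names, and a detail of the organoids, are not reported here. The members and lists were chosen with earlier results of these data known. Sequences are from RefSeq.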

Additional observations from a re-analysis of the deposited data

How the results depend on the processing

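Cd34 and Kdr kept their direction against normal livers in all alternatives, but their calls did not in every one. Cd34 left the test, and 1 member was called higher in the empty group, when at least 10 counts were required in every library, because normal livers held fewer. With limma on log2(TPM + 1), 0 members were called lower in the empty group, as Kdr came just under 2-fold. In the UTOpiA group 2 members were called higher with limma on either TPM scale and 3 without a fold threshold, and 2 were called lower with only the 6 libraries compared, where Stab2 joined Kdr. With a library left out, each of the 4 counts against normal livers ranged from 1 to 2. Those between the ACLF groups stayed at 0. The sinusoidal minus capillarisation difference from normal ranged from -2.8 to -1.67 for the empty group and from -2.52 to -1.35 for UTOpiA, and that between ACLF groups from -0.31 to 0.86.

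Some small differences changed sign, on the TPM scales, with a library left out or, for Stab1, with the stricter count filter. On TPM the median of all genes was itself 0.44 and 0.54 in the empty group, 0.29 and 0.35 with UTOpiA and -0.17 and -0.2 between ACLF groups on log2(TPM + 1) and log2(TPM + 0.1). Stab1 in the empty group was 0.07 with at least 10 counts in every library, and 0.37 and 0.45 on log2(TPM + 1) and log2(TPM + 0.1). On the same 2 scales Lyve1 in the empty group was 0.04 and 0.04, Stab1 in the UTOpiA group 0.11 and 0.14, Flt1 in the UTOpiA group 0.11 and 0.13, and between ACLF groups Lyve1 was -0.17 and -0.17 and Kdr -0.13 and -0.15, while Cd34 was -0.02 on log2(TPM + 0.1). Beside those medians, these TPM values give no change of direction relative to all genes, with Lyve1 between ACLF groups at the median itself on log2(TPM + 1). Lyve1 in the UTOpiA group was below 0 in all alternatives run. With a library left out, Stab1 ranged from -0.23 to 0.14, Clec4g from -1.55 to 0.21 and Flt1 from -0.28 to 0.5 in the empty group, and Clec4g from -0.24 to 0.87 in the UTOpiA group. Between ACLF groups the ranges were -0.31 to 0.06 for Stab1, -0.32 to 1.89 for Stab2, -0.26 to 0.37 for Lyve1, -0.01 to 0.57 for Cd34, -0.37 to 0.08 for Plvap, -0.15 to 0.27 for Kdr and -0.69 to 0.08 for Flt1.

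Alternatives for the lists were chosen after seeing the data. Further sinusoidal genes called lower in the empty group numbered 1 on log2(TPM + 1) and 1 to 4 with an ACLF library left out, the 1 without empty liver 3. In the UTOpiA group, 2 were called lower with DESeq2 and 0 to 2 with a library left out, and 2 to 5 were called higher, 3 without UTOpiA liver 1 and 2 without UTOpiA liver 2. Vascular counts stayed within 1.5 times, and basement membrane counts ranged from 11 to 12 and from 9 to 12.

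Same-numbered replicates did not deviate together (correlations from -0.18 to 0.06), so the numbers share only a name. A replicate block left 2 members called higher and 1 lower in the empty group, 1 and 1 with UTOpiA, and 0 between ACLF groups, with Stab2 at -1.86 in the empty group.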
